A study of Mus musculus with 10 samples.

Results

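The CLC chloride channel and transporter genes *Clcn1* to *Clcn7* were followed in regenerating tibialis anterior (TA) muscle of mice with and without miR-501. They were taken by gene symbol, not by a threshold on their values, and are 7 of the 25700 genes counted in each mouse. *Clcn5* carries the miR-501 precursor in an intron and is therefore its host gene, and *Clcn1* encodes the main chloride channel of the adult muscle fiber. The study compared 5 Pax7Cre mice with 5 Pax7CremiR-501fl/Y mice, titled miR-501KO, as a search across all genes for differences in injured muscle. All were 12-week-old C57BL/6 males, all carried Cre under the Pax7 promoter, and all had cardiotoxin (CTX), a venom toxin that destroys fibers and sets off regeneration, injected into the TA muscle. Whole muscle was taken at day 6, and polyadenylated RNA was sequenced. In miR-501KO mice the precursor is flanked by loxP sites and removed in cells of the Pax7 lineage, the muscle progenitors (MPs) and fibers formed from them. By design the other cells of the muscle keep it. In the sample labels the genotypes read wild type and miR-501 -/-, with no word on a conditional deletion.

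CLC proteins are dimers in which each subunit has its own ion pathway. *Clcn1* and *Clcn2* encode chloride channels of the plasma membrane, whereas *Clcn3*, *Clcn4*, *Clcn5*, *Clcn6* and *Clcn7* encode chloride/proton exchangers of endosomes and lysosomes, which work beside the vacuolar proton pump. In skeletal muscle the *Clcn1* channel carries most of the resting membrane conductance, and its loss causes myotonia, a delayed relaxation after contraction. Loss of *Clcn5* in the kidney impairs endocytosis of filtered protein (Dent disease), and loss of *Clcn7* causes osteopetrosis with lysosomal storage.

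*Clcn5* lies on the minus strand of chromosome X (GRCm38, chrX:7153810-7319358), and 5 miRNA hairpins of RefSeq (GRCm38.p6) lie inside it on the same strand, namely *Mir532*, *Mir188*, *Mir362*, *Mir501* and *Mir500*. *Mir501* (chrX:7241243-7241351) begins 78.0 kb after the upstream start of the gene. Of the 5 *Clcn5* transcripts of GENCODE M21, 3 start at that end and span the hairpins, with *Mir501* in intron 3 of Clcn5-202, intron 2 of Clcn5-203 and intron 3 of Clcn5-204. The other 2, Clcn5-201 and Clcn5-205, start downstream of the hairpins and do not contain them. Counts were made per gene, so mRNA from the start that makes the miRNA host transcript and mRNA from the downstream start were not separated.

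**Figure D1:**
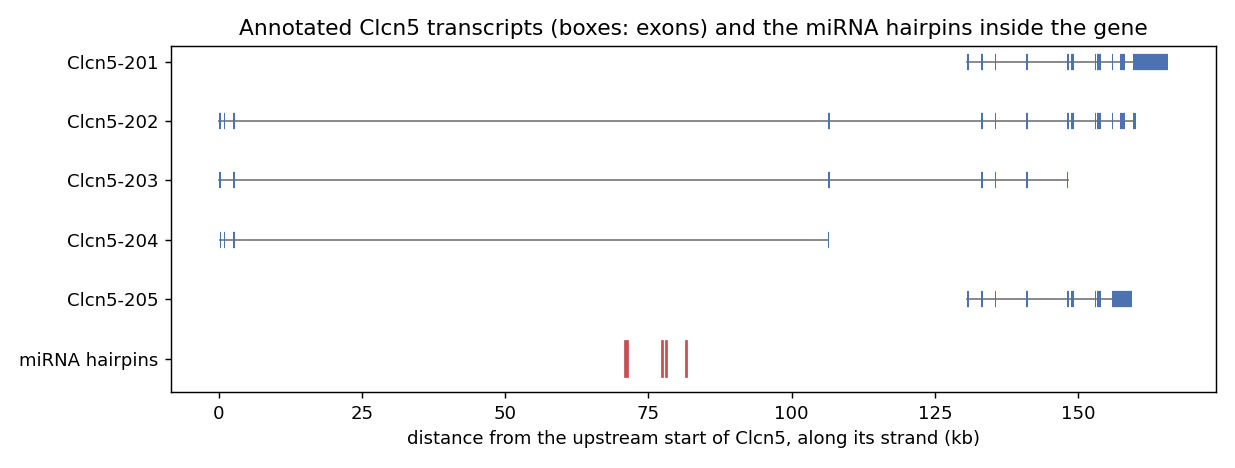
Annotated transcripts of *Clcn5* (boxes are exons, lines are introns) and the 5 miRNA hairpins inside the gene (vertical lines), along the distance from the upstream start in kb. The hairpins sit in the long intron of Clcn5-202, Clcn5-203 and Clcn5-204 and lie upstream of the start of Clcn5-201 and Clcn5-205.

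The mature miRNAs show what was deleted and what remains. Capitals mark the seed, bases 2 to 8 counted from the 5′ end, which pairs with target mRNAs. The 3p arms of *Mir501* and *Mir500* have the same seed, and the 5p arms of *Mir500* and *Mir362* share another.
miR-501-3p: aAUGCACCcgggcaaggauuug
miR-500-3p: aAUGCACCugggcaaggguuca
miR-501-5p: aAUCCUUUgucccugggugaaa
miR-500-5p: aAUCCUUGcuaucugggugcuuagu
miR-362-5p: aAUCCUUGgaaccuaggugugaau

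A complement of the seed shared by miR-501-3p and miR-500-3p, GGTGCAT, is present in an annotated 3′ untranslated region of 1491 of 21102 genes (7.07%). Of the 7 CLC genes 2 have it. In *Clcn5* it lies at base 1001 of the 5919-base 3′ end of Clcn5-201, the transcript that does not span the hairpins. In *Clcn4* it is found only in Clcn4-210, which is annotated as a target of nonsense-mediated decay. Both are shown with 8 bases of mRNA-strand sequence on each side and the match in capitals, the first at chrX:7158714-7158736 and the second at chr7:7293982-7294004 (GRCm38, both on the minus strand). A match describes the letters and does not show that the miRNA binds there.
Clcn5 site: agcatcccGGTGCATttctttga
Clcn4 site: ggcccactGGTGCATgtggcatg

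None of the 5 hairpin genes is among the genes listed, so the deletion of miR-501 was not checked in these counts. Between 18609222 and 24753258 reads were counted per mouse, and the tissue label matched the markers, with *Mylpf*, *Ckm* and *Tnnc2* the most abundant of 20 mature fiber genes and *Actc1*, *Myh8* and *Myl4* the most abundant of 10 regenerating fiber genes. The mature fiber genes together had 32868 to 89378 CPM (counts scaled to a common library size with edgeR's TMM method) in Pax7Cre mice and 54920.4 to 67924.5 CPM in miR-501KO mice. Pax7Cre mouse 2 was the highest and Pax7Cre mouse 4 the lowest on the mean of these genes on the log2 scale, and no marker gene was at 0 in any mouse. In 7 marker lists no gene had an unadjusted p under 0.05 in edgeR, and the median log2 fold changes were 0.036 for mature fiber, 0.030 for regenerating fiber, 0.038 for MP, 0.016 for macrophage, -0.037 for fibro-adipogenic progenitor, -0.061 for endothelial and 0.027 for Schwann cell markers. Differences between genotypes were tested with the quasi-likelihood method of edgeR over 14410 genes that passed a filter on low counts, which all 7 CLC genes did, and no gene had an adjusted p under 0.05 (0% of those tested). Before adjustment 151 genes (1.05%) had p under 0.05, with 55 higher (0.382%) and 96 lower (0.666%) in miR-501KO mice, and 0 of them were CLC genes. The adjusted p was 1.00 for each of the 7. DESeq2 also called no gene after adjustment. In simulated data of the same size 200 of 14410 genes were changed, and each gene was drawn independently. At an adjusted p under 0.05 the test recovered 43.4% of genes changed by 0.5 on the log2 scale and 88.9% of those changed by 1. These shares are over genes of all levels, without shifts shared by the genes of a mouse. They are not the power for a single CLC gene in the real data.

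No difference in the host gene was detected between the genotypes. *Clcn5* had 56.6, 49.9, 65.3, 69.3 and 69.3 CPM in Pax7Cre mice 1 to 5 and 65.2, 64.9, 64.7, 62.6 and 67.0 CPM in miR-501KO mice 1 to 5. All 5 miR-501KO mice lay inside the range of the Pax7Cre mice, of which 2 were lower and 2 higher than every miR-501KO mouse. The means were 62.1 ± 8.59 CPM (SD, n = 5) in Pax7Cre and 64.9 ± 1.55 CPM (SD, n = 5) in miR-501KO. The log2 fold change of miR-501KO over Pax7Cre was 0.06 (SE 0.091, unadjusted p = 0.503 in edgeR, 0.524 in an exact two-sided permutation test of the CPM). Its 95% interval, -0.13 to 0.26, corresponds to levels between 0.911 and 1.20 times those of Pax7Cre mice. The coefficient of variation was 13.8% in Pax7Cre and 2.39% in miR-501KO mice, beside medians over all genes tested of 14.9% and 9.26%. These put *Clcn5* at percentile 44.5 of the genes tested in Pax7Cre and at percentile 1.46 in miR-501KO mice. Without Pax7Cre mouse 2 the Pax7Cre value was 9.20% (n = 4). Without Pax7Cre mouse 2 the log2 fold change was -0.0084, and without Pax7Cre mouse 4 it was 0.11. With the mature fiber score as a covariate it was 0.11 (SE 0.072, unadjusted p = 0.163 in edgeR).

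**Figure D2:**
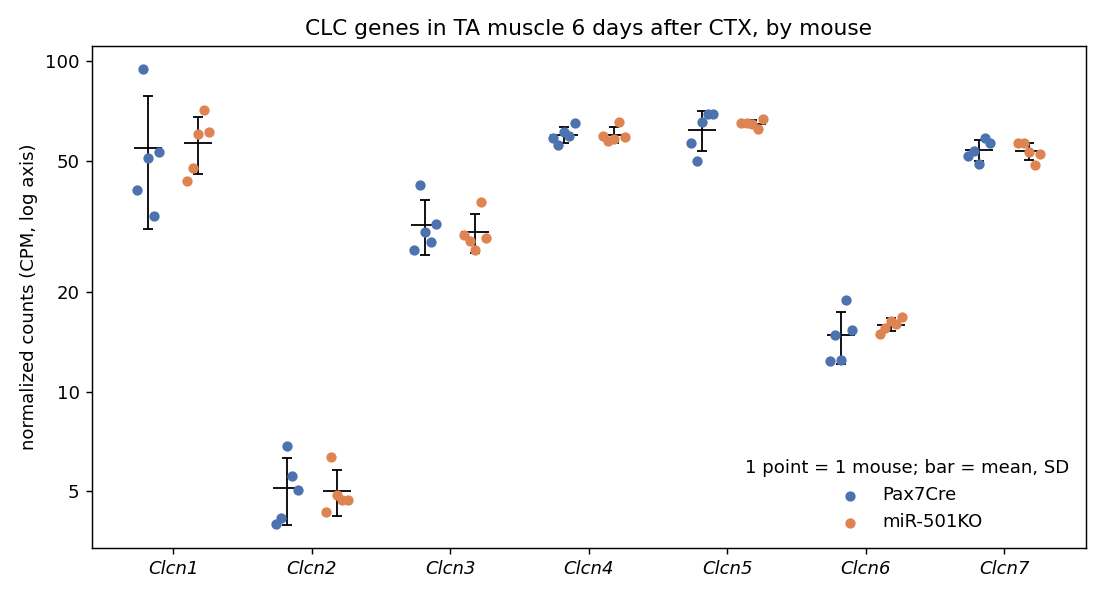
Normalized counts (CPM, log axis) of the 7 CLC genes in each mouse, with the mean and SD of each genotype (n = 5). The groups overlap in every gene shown, and of all 14410 genes tested only 20 (0.139%) have groups that do not overlap. The widest spread is that of *Clcn1* in Pax7Cre mice, from 34.1 to 95.03 CPM.

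*Clcn1* was the CLC gene that varied most between mice. It had 40.8, 95.03, 51.0, 34.1 and 53.3 CPM in Pax7Cre mice 1 to 5 and 43.5, 47.5, 60.4, 71.1 and 61.2 CPM in miR-501KO mice 1 to 5. Pax7Cre mouse 2 was the highest of all 10 mice and Pax7Cre mouse 4 the lowest, and the miR-501KO mice fell between them. The means of 54.8 ± 23.8 and 56.7 ± 11.2 CPM (SD, n = 5 each) gave a log2 fold change of 0.05 (SE 0.236, 95% interval -0.46 to 0.56, unadjusted p = 0.833 in edgeR, 0.897 in an exact permutation test). The interval covers levels from 0.727 to 1.47 times those of Pax7Cre mice, so changes within that range were not excluded in either direction. The estimate depended on single mice. Without Pax7Cre mouse 2 it rose to 0.34 (SE 0.156, unadjusted p = 0.0485, adjusted p = 0.999 in edgeR), without Pax7Cre mouse 4 it was -0.081, and with the mature fiber score as a covariate it was -0.018.

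*Clcn2*, a widely expressed channel opened by hyperpolarization, was the least abundant member. Counts were 79 to 139 per mouse, which correspond to 3.99, 4.17, 6.87, 5.58 and 5.04 CPM in Pax7Cre mice 1 to 5 and 4.32, 6.37, 4.87, 4.71 and 4.70 CPM in miR-501KO mice 1 to 5. The genotypes overlapped over almost their whole range (5.13 ± 1.17 and 5.00 ± 0.794 CPM, SD, n = 5 each), and the log2 fold change was -0.038 (SE 0.166, 95% interval -0.40 to 0.32, unadjusted p = 0.823 in edgeR). Exons of *Clcn2* overlap those of *Fam131a* (431 to 878 counts per mouse) and *Polr2h* (272 to 408) on the opposite strand, and exons of *Clcn1* overlap those of *Fam131b* (43 to 117). Whether the counting used the strand is not given in the sources used here, so some of the *Clcn2* counts may belong to these neighbors.

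Among the endosomal exchangers, *Clcn4* and *Clcn3* gave no call. *Clcn4* had 58.5, 55.9, 61.1, 59.3 and 65.03 CPM in Pax7Cre mice 1 to 5 and 59.5, 57.6, 58.3, 65.7 and 58.9 CPM in miR-501KO mice 1 to 5. It was the steadiest of the 7 genes across all mice, the highest value being 1.18 times the lowest. Its log2 fold change was 0.00062 (SE 0.067, 95% interval -0.14 to 0.14, unadjusted p = 0.993 in edgeR). *Clcn3*, the exchanger closest to *Clcn4* and *Clcn5* in sequence, had 26.8, 42.2, 30.4, 28.3 and 32.3 CPM in Pax7Cre mice 1 to 5 and 29.9, 28.6, 26.9, 37.6 and 29.3 CPM in miR-501KO mice 1 to 5. In each genotype 1 mouse stood above the rest, and these were Pax7Cre mouse 2 and miR-501KO mouse 4, also the highest of their genotypes in *Clcn1*. The log2 fold change of *Clcn3* was -0.071 (SE 0.126, 95% interval -0.34 to 0.20, unadjusted p = 0.583 in edgeR), and without Pax7Cre mouse 2 it was 0.045. With the mature fiber score as a covariate it was -0.12 (SE 0.084, unadjusted p = 0.170 in edgeR).

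*Clcn7*, the lysosomal exchanger, and *Clcn6*, an exchanger of late endosomes, likewise gave no call. *Clcn7* had 51.7, 53.6, 48.9, 58.7 and 56.8 CPM in Pax7Cre mice 1 to 5 and 56.5, 56.5, 53.4, 48.7 and 52.4 CPM in miR-501KO mice 1 to 5. The 2 ranges were nearly the same, and the log2 fold change was -0.011 (SE 0.072, 95% interval -0.17 to 0.15, unadjusted p = 0.881 in edgeR). *Clcn6* had 12.4, 14.9, 12.5, 18.9 and 15.4 CPM in Pax7Cre mice 1 to 5 and 14.9, 15.6, 16.4, 16.1 and 16.8 CPM in miR-501KO mice 1 to 5. It had the largest log2 fold change of the 7 genes, 0.10 (SE 0.112, 95% interval -0.14 to 0.35, unadjusted p = 0.371 in edgeR), with Pax7Cre mouse 4 above all other mice. Without that mouse the value was 0.21 (SE 0.092, unadjusted p = 0.0410, adjusted p = 0.996 in edgeR). Of the 7 genes 4 had a log2 fold change above 0, and their median was 0.00062, beside -0.0042 for all genes tested.

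**Figure D3:**
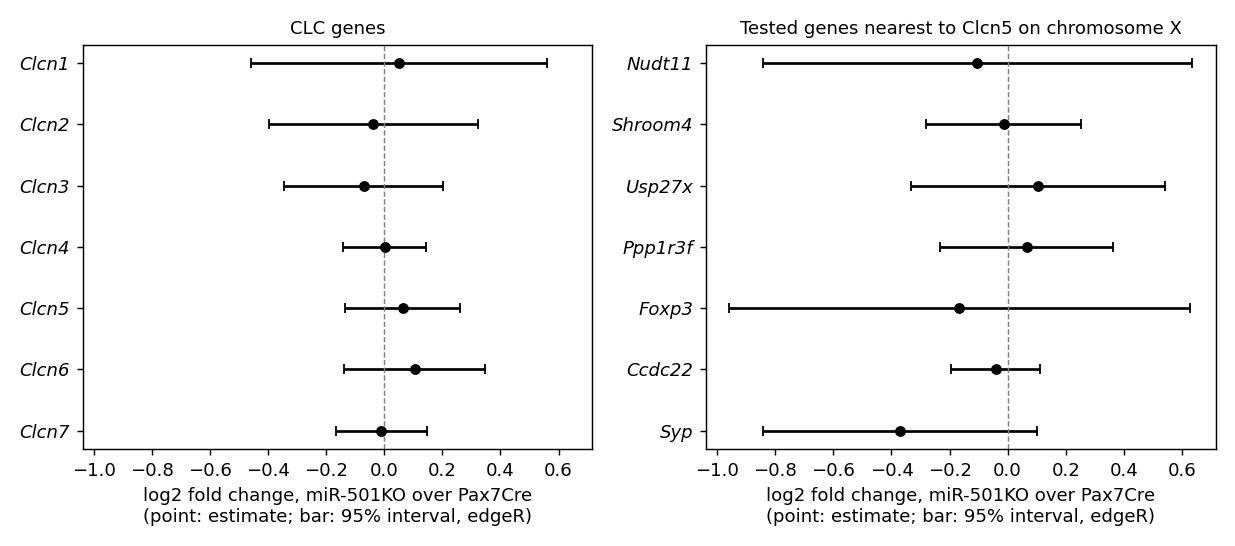
Log2 fold changes of miR-501KO over Pax7Cre with 95% intervals from edgeR (n = 5 mice each) for the 7 CLC genes (left) and for the 7 tested genes nearest to *Clcn5* (right). Every interval includes 0, and among the CLC genes the narrowest is that of *Clcn4*, from -0.14 to 0.14.

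Levels of different genes were compared as CPM per kb of merged exons. *Clcn1* and *Clcn7* were at the top with 10.3 ± 3.23 and 10.2 ± 0.642 CPM per kb (SD, n = 10 mice of both genotypes). They were followed by *Clcn4* (6.996 ± 0.367), *Clcn5* (5.54 ± 0.524), *Clcn6* (2.60 ± 0.326), *Clcn3* (1.83 ± 0.290) and *Clcn2* (0.841 ± 0.157 CPM per kb). *Clcn1* and *Clcn7* were not separated, since *Clcn1* was the higher in 5 of 10 mice and the mean log2 ratio of *Clcn1* over *Clcn7* was -0.038, although the mean level of *Clcn1* was the higher (exact paired sign-flip test, two-sided, adjusted p = 0.805). Each of the other 5 neighboring pairs kept its order in 10 of 10 mice (adjusted p = 0.00234 over 6 pairs, the raw p being the smallest the exact test allows, 0.00195). The order was itself taken from the means of these mice. The p-values therefore describe how steady a pair was between mice and do not cover the choice of length. The steps were 1.45-fold from *Clcn7* to *Clcn4*, 1.27-fold from *Clcn4* to *Clcn5*, 2.14-fold from *Clcn5* to *Clcn6*, 1.42-fold from *Clcn6* to *Clcn3* and 2.19-fold from *Clcn3* to *Clcn2*. With the length of the longest transcript in place of merged exons, *Clcn4* and *Clcn7* were no longer separated (log2 of *Clcn7* over *Clcn4* -0.039) and *Clcn3* lay above *Clcn6* (log2 of *Clcn6* over *Clcn3* -0.36, adjusted p = 0.00879 in the exact test). The rank of these genes thus depended on the length assumed.

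Of the summed level per kb of the 7 genes, *Clcn1* made up 22.5%, 39.6%, 25.7%, 17.4% and 24.8% in Pax7Cre mice 1 to 5 and 22.1%, 23.5%, 28.7%, 31.8% and 28.7% in miR-501KO mice 1 to 5. The means were 26.0 ± 8.27% and 27.0 ± 4.05% (SD, n = 5 each), and the difference was not called (exact permutation test, two-sided, p = 0.825). *Clcn7* had a similar part with 27.1 ± 3.10% and 26.4 ± 2.83%, its mean above that of *Clcn1* in Pax7Cre and below it in miR-501KO mice, and *Clcn5* made up 14.5 ± 2.68% and 14.7 ± 0.907%. *Clcn2* contributed 2.27 ± 0.595% and 2.16 ± 0.388%.

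**Figure D4:**
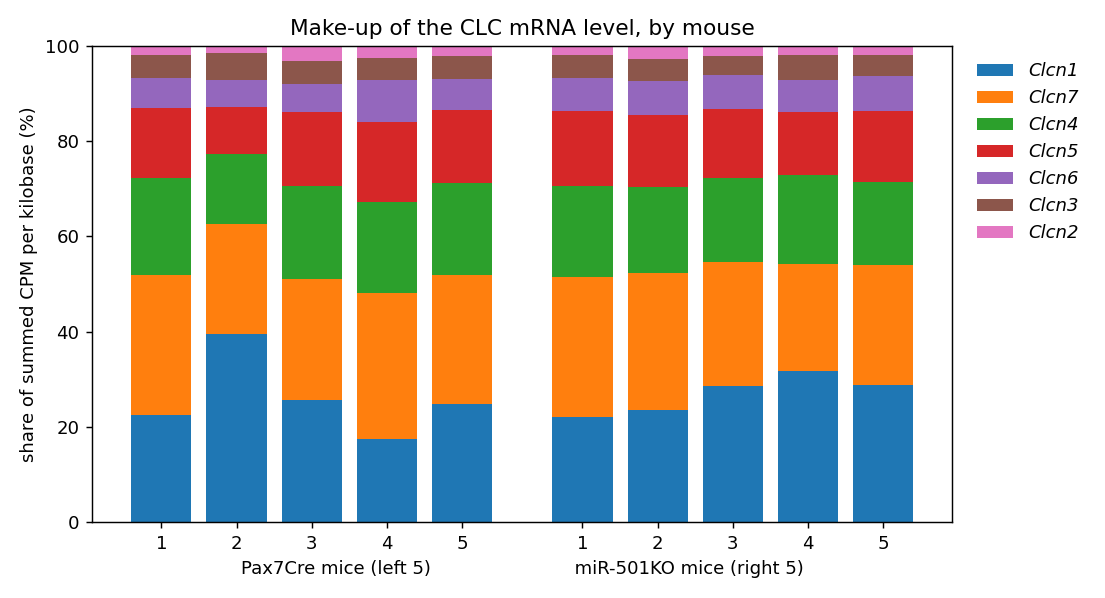
Share of each CLC gene in the summed CPM per kb of the 7 genes, 1 bar per mouse, Pax7Cre mice on the left and miR-501KO mice on the right. The *Clcn1* share is largest in Pax7Cre mouse 2 (39.6%) and smallest in Pax7Cre mouse 4 (17.4%).

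Across the 10 mice *Clcn1* followed the mature fiber markers. The mature fiber score, the mean over 20 genes of log2 CPM centered on each gene's mean, was 0.67 in Pax7Cre mouse 2 and -0.65 in Pax7Cre mouse 4, and between -0.22 and 0.31 in the other mice. *Clcn1* on the log2 scale had a Pearson's r of 0.94 with it (permutation p = 5e-05, adjusted p = 0.0007 over 14 relations, n = 10) and a Spearman's rho of 0.92 (permutation p = 0.00049, adjusted p = 0.00686). Without Pax7Cre mice 2 and 4, the mice farthest from the median score, r was 0.82. *Clcn1* was also lower where the macrophage score was higher, with r = -0.80 (permutation p = 0.00426, adjusted p = 0.0298) and rho = -0.78 (permutation p = 0.0103, adjusted p = 0.0479), and r was -0.63 without Pax7Cre mice 1 and 4. Both scores come from the same libraries as the gene and, in whole muscle, fewer cells of a type and less RNA per cell cannot be told apart.

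*Clcn3* had r = 0.77 with the mature fiber score (permutation p = 0.00801, adjusted p = 0.0374), but its rho of 0.61 did not pass (permutation p = 0.0664, adjusted p = 0.232), and r was 0.66 without the same 2 mice. With the macrophage score *Clcn3* had rho = -0.79 (permutation p = 0.00872, adjusted p = 0.0479), while its r of -0.64 did not pass (permutation p = 0.0409, adjusted p = 0.141) and was -0.56 without Pax7Cre mice 1 and 4. For *Clcn5* against the mature fiber score r was -0.67 (permutation p = 0.0503, adjusted p = 0.141) and rho was -0.36 (permutation p = 0.316, adjusted p = 0.737). Without Pax7Cre mice 2 and 4 its r over the other 8 mice was 0.16, and neither r nor rho over all 10 mice passed after adjustment. The lysosomal *Clcn7* had r = 0.44 with the macrophage score (permutation p = 0.201, adjusted p = 0.401), with rho = 0.24 (permutation p = 0.515, adjusted p = 0.839). Among the 21 pairs of CLC genes the highest r was that of *Clcn1* with *Clcn3*, 0.78 (permutation p = 0.00706, adjusted p = 0.148, n = 10), with rho = 0.66 (permutation p = 0.0438, adjusted p = 0.813) and r = 0.58 without Pax7Cre mice 2 and 4. Of the 21 pairs 1 had a raw p under 0.05 and none had an adjusted p under 0.05.

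**Figure D5:**
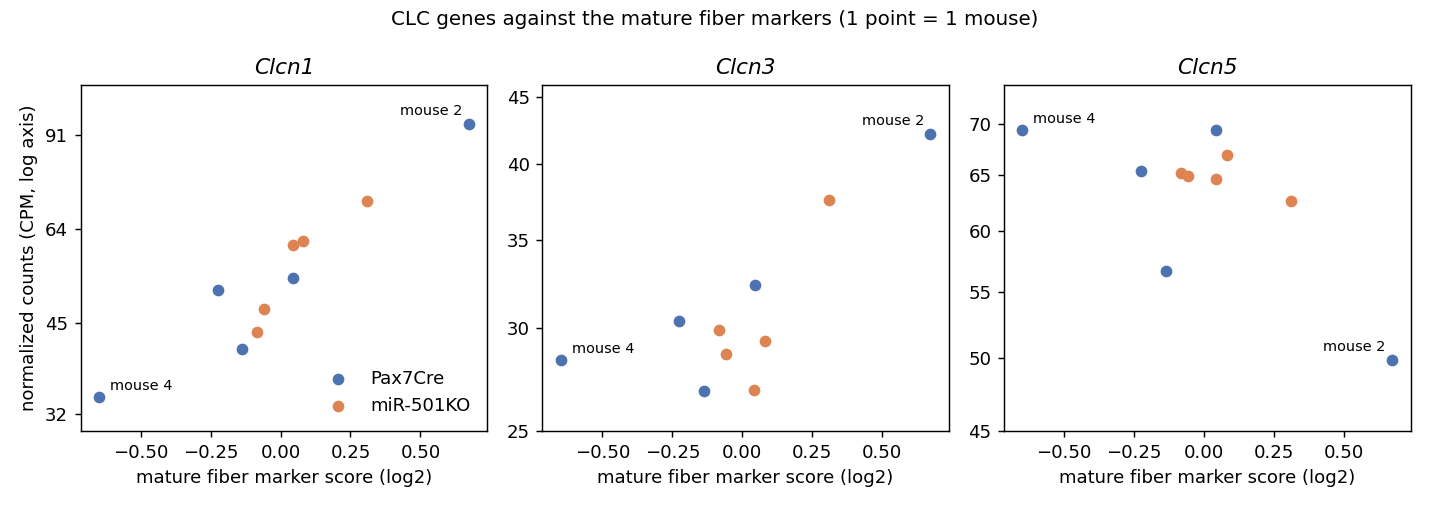
CPM (log axis) of *Clcn1*, *Clcn3* and *Clcn5* against the mature fiber marker score (log2) in each of 10 mice, colored by genotype. Over the 10 mice r is 0.94 for *Clcn1* and -0.67 for *Clcn5*, and without the 2 labelled Pax7Cre mice, which hold the ends of the score, it is 0.82 and 0.16.

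The genes with the pattern most like that of *Clcn1*, by Pearson's r of log2 CPM over the 10 mice among 14385 genes, included *Ano5* (r = 0.98) and *Myom1* (r = 0.97). Without Pax7Cre mouse 2 the values were 0.97 and 0.94. For *Clcn5* the most alike were *Eif5a2* (r = 0.98), *Farp1* (r = 0.97) and *Palld* (r = 0.96), and without Pax7Cre mouse 2 they had 0.92, 0.94 and 0.88. These are the highest of many values and are given as a description, with no test.

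Genes that work with the CLC proteins were read from 7 lists with 111 genes, of which 90 were tested. Their log2 fold changes were above 0 in 43 and below 0 in 47, with a median of -0.0024, and 1 (1.11%) had an unadjusted p under 0.05, a share near the 1.05% of all genes. That gene was *Atp6v0a2*, a membrane subunit of the vacuolar proton pump, with 56.4 ± 5.14 CPM in Pax7Cre and 62.9 ± 1.28 CPM in miR-501KO mice (SD, n = 5 each). Its values ran from 48.9 to 63.0 CPM and from 61.1 to 64.3 CPM, so the genotypes overlapped. The log2 fold change was 0.16 (SE 0.072, unadjusted p = 0.0485, adjusted p = 1.00 in edgeR, 0.0317 in an exact permutation test). Of the 21 tested pump genes 8 were above 0 and 13 below, with a median of -0.010, and *Tcirg1*, the pump subunit of the osteoclast, had a log2 fold change of 0.10 (SE 0.107).

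The mRNAs of partner proteins gave no call. *Ostm1*, the beta subunit of the *Clcn7* exchanger, had 40.3 ± 5.72 and 38.8 ± 4.41 CPM (SD, n = 5 each) and a log2 fold change of -0.056 (SE 0.107, unadjusted p = 0.610 in edgeR). *Tmem9* and *Tmem9b*, described as partners of the endosomal exchangers, had -0.049 and -0.0013. Among 18 tested genes of endosomes and lysosomes the median was -0.017 with 0 genes at an unadjusted p under 0.05. The smallest p was that of *Mitf*, a transcription factor related to regulators of lysosomal genes (log2 fold change 0.16, SE 0.096, unadjusted p = 0.124 in edgeR).

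Among 19 tested genes of other chloride channel families the median was 0.017 with none at an unadjusted p under 0.05 in edgeR. The smallest p was that of *Ttyh1*, a gene of the tweety family of proposed anion channels, with 0.965 ± 0.554 and 0.627 ± 0.279 CPM (SD, n = 5 each) and -0.61 on the log2 scale (SE 0.400, unadjusted p = 0.151). *Ano1*, a calcium-activated chloride channel, had 7.51 ± 1.25 and 8.62 ± 1.22 CPM (SD, n = 5 each) and a log2 fold change of 0.20 (SE 0.137, unadjusted p = 0.174). Of the cation chloride cotransporters 7 were tested, with a median of -0.0040. The lowest log2 fold change among them was that of *Slc12a8*, a less studied member of the family, with -0.26 (SE 0.280), and the highest that of *Slc12a4*, a potassium chloride cotransporter, with 0.083 (SE 0.114). The 13 genes of *Clcn1* splicing and turnover, which include the Mbnl splicing factors that control its adult exon pattern, had a median of 0.017. The smallest p among them was that of *Mbnl3*, with 2.19 ± 0.384 and 2.67 ± 0.278 CPM (SD, n = 5 each). Its log2 fold change was 0.28 (SE 0.160, unadjusted p = 0.102 in edgeR, 0.0556 in an exact permutation test). In the 9 genes of sarcolemmal excitability the median was -0.023 and the range -0.12 to 0.33, with none at an unadjusted p under 0.05 in edgeR.

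To see whether reads changed elsewhere around the deleted locus, the nearest tested genes on either side of *Clcn5* were taken, up to 5 a side. On the downstream side only *Shroom4* and *Nudt11* were tested, and on the upstream side *Usp27x*, *Ppp1r3f*, *Foxp3*, *Ccdc22* and *Syp*. The downstream genes are far away, *Shroom4* 516 kb and *Nudt11* 1099 kb from *Clcn5*. *Nudt11* had a mean of only 0.68 CPM in Pax7Cre and 0.63 CPM in miR-501KO mice. Log2 fold changes were above 0 in 2 of the 7 and below 0 in 5, with a median of -0.041 and 0 at an unadjusted p under 0.05 in edgeR. The closest, *Usp27x*, lies 51.9 kb from *Clcn5* and had a log2 fold change of 0.10 (SE 0.202). The lowest was *Syp*, encoding synaptophysin, with -0.37 (SE 0.217, 95% interval -0.84 to 0.10, unadjusted p = 0.112 in edgeR) at a mean of 2.22 CPM in Pax7Cre and 1.71 CPM in miR-501KO mice. *Foxp3* overlaps *Ppp1r3f* at one end and *Ccdc22* at the other, so reads there may be shared.

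The promoters of the channel and exchanger genes were compared by motif. RefSeq (GRCm38.p6) gives 11 promoter windows for the 7 genes, each from 250 bases before to 50 after a start, and both strands were searched. TATAAA is in 2 of these windows (13.6% of all promoters hold it), those of *Clcn1* and of the downstream start of *Clcn5*. A MEF2 box, the site of a family of muscle transcription factors, is in the *Clcn1* window alone (1.86% of all promoters) and overlaps that match. The core of the CLEAR box of lysosomal genes, CACGTG, is in 3 windows, those of *Clcn4*, *Clcn6* and *Clcn7* (7.15% of all promoters). TGACGTCA is in 2 windows, of *Clcn3* and *Clcn4* (1.79%), and CANNTG, which includes CACGTG, is in all 11 (72.3%). The following 28-base stretches are shown with the match in capitals, at chr6:42286624-42286651 (plus strand), chr17:25133365-25133392 (plus strand) and chr4:148038822-148038849 (minus strand).
Clcn1 promoter: ggagagacagcTATAAAtagctagaggt
Clcn7 promoter: ccgtcgtcagtCACGTGggcaccgatga
Clcn6 promoter: ccggggccagtCACGTGaggcgcggatc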

How the data were processed

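Whole TA muscle of 5 Pax7Cre and 5 miR-501KO mice was sequenced from stranded mRNA libraries in single-end reads. The authors deposited raw counts per Ensembl gene and mouse, without normalization. The submitters' processing notes name STAR, featureCounts, R 3.5.1 and GRCm38.p5. How strand and reads matching more than one gene were treated, and the versions of aligner and counter, are not given in the sources used here. Symbols, exon lengths and transcripts came from GENCODE M21 (GRCm38), which gave a symbol for 25587 of 25700 genes, and 5846 genes had no read. Totals were 18609222 to 22064583 counts per Pax7Cre mouse and 20046670 to 24753258 per miR-501KO mouse. Mice of a genotype differed by more than sampling noise (chi-square divided by its degrees of freedom 9.47 or more), so no library was counted as a copy.

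Library sizes were scaled with TMM in edgeR 4.0.16 (R 4.3.3). The filterByExpr function (minimum count 10, minimum total 15) left 14410 genes, to which the quasi-likelihood model with genotype as factor was fitted, and p-values were adjusted by Benjamini-Hochberg over all of them. Log2 CPM used a prior count of 2. DESeq2 1.42.0 was an alternative. Exact tests and correlations (100000 permutations) used SciPy 1.17.1. For 5 mice against 5 the smallest exact p is 0.00794. The steps were tested on simulated data over 14410 genes.

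The CLC genes, the 7 pathway lists and the 7 marker lists were chosen with earlier results of these data known. The text names all CLC genes, in each pathway list genes among the 4 with the smallest edgeR p, the tested neighbors of *Clcn5*, the 3 genes most like *Clcn1* and *Clcn5*, and the 3 most abundant genes of a marker list. Genes overlapping a CLC gene are named beside them. Some genes that this rule names are not reported here.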

Additional observations from a re-analysis of the deposited data

Results flagged for a closer look

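In each genotype the highest and the lowest mouse were compared with the others for the 7 CLC genes, the *Clcn1* share and the 7 marker scores. In 4 of 30 groups of 5 mice the gap to the nearest mouse was more than 0.71 of the whole range, where chance gives about 1 in 20 groups, or 1.5 of 30. All 4 were in the miR-501KO group. *Clcn2* stood at 6.37 CPM in miR-501KO mouse 2, with 4.32 to 4.87 CPM in the other 4. In miR-501KO mouse 4 both *Clcn3* (37.6 CPM, others 26.9 to 29.9) and *Clcn4* (65.7 CPM, others 57.6 to 59.5) were the highest. The score of the fibro-adipogenic progenitor markers was 0.097 in miR-501KO mouse 3, with -0.050 to -0.0085 in the others.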

How the results depend on the processing

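None of the 7 CLC genes had an adjusted p under 0.05 in edgeR or DESeq2 under any alternative, and the number of genes with an adjusted p under 0.05 was 0 in each. Of 63 estimates of CLC log2 fold changes under 9 alternatives other than leaving out a mouse, 56 kept their direction. The *Clcn4* estimate, close to 0, turned to -0.00063 with DESeq2's size factors, -0.0035 with TMM factors computed without mature fiber markers, -0.0014 without a filter, -0.0033 with at least 10 counts in every mouse and -0.0011 in DESeq2's Wald test. With the mature fiber score as a covariate *Clcn1* turned to -0.018 and *Clcn2* to 0.015, and the genes at an unadjusted p under 0.05 became 338 higher and 225 lower in place of 55 and 96. Without a filter they were 153 and 159, and with at least 10 counts in every mouse 36 were higher. With the longest transcript as length, the log2 ratios per kb turned from -0.038 to 0.26 for *Clcn1* over *Clcn7*, and to -0.039 for *Clcn7* over *Clcn4* and -0.36 for *Clcn6* over *Clcn3*, since the lengths changed. The other causes were not tested.

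Mouse numbers 1 to 5 occur in both genotypes. Deviations of equally numbered mice correlated between -0.30 and 0.34, and 5 of 10 mice correlated best with their own number. For numbers 1 and 5 this held in both genotypes. The labels do not name the numbers as pairs, so they were not taken as pairs, and whether some mice were paired was not settled. With the replicate block the count of higher genes at p under 0.05 before adjustment was 87 in place of 55, and it changed no call of a CLC gene.

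Leaving out each mouse in turn gave log2 fold changes of -0.081 to 0.34 for *Clcn1*, -0.14 to 0.087 for *Clcn2*, -0.16 to 0.045 for *Clcn3*, -0.034 to 0.031 for *Clcn4*, -0.0084 to 0.11 for *Clcn5*, 0.045 to 0.21 for *Clcn6* and -0.043 to 0.022 for *Clcn7*. The difference in the *Clcn1* share, 0.948 percentage points, went from -1.21 (without Pax7Cre mouse 4) to 4.35 (without Pax7Cre mouse 2). The genes at an unadjusted p under 0.05 ranged from 39 to 267 higher and 59 to 242 lower, most higher without Pax7Cre mouse 2 and most lower without Pax7Cre mouse 4. CLC genes among them numbered 0 to 1, namely *Clcn1* without the former and *Clcn6* without the latter. *Clcn2* had the fewest counts of the CLC genes, 79 to 139 per mouse.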

Other observations

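Seeds of the other miRNAs inside *Clcn5* also have complements in 3′ untranslated regions of CLC genes. That of miR-188-3p, TGTGGGA, is in *Clcn1*, *Clcn4* and *Clcn6* (17.2% of genes have it), and that of miR-532-3p, GTGGGAG, which shares most of its letters with it, is in *Clcn3*, *Clcn4*, *Clcn6* and *Clcn7* (15.9%). That of miR-362-3p, GGTGTGT, is in *Clcn3* (15.8%), and that of miR-188-5p, AAGGGAT, is in *Clcn5* (10.2%). The complement of the seed shared by miR-500-5p and miR-362-5p, CAAGGAT, is in *Clcn1* (10.5%), there only in transcripts annotated as targets of nonsense-mediated decay. The complement of the miR-501-5p seed, AAAGGAT, is in none of the 7 genes (13.8% of genes have it). None of these matches was tested against the counts.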
